A study of Mus musculus with 9 samples.

Results

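Axon guidance ligands and receptors were measured on expression arrays of N1E-115 cells, a mouse neuroblastoma line of sympathetic nerve cell origin. The genes were chosen by symbol: semaphorins (Sema), plexins (Plxn), neuropilins (Nrp1, Nrp2), ephrins (Efna, Efnb), Eph receptors (Epha, Ephb), Slits 1 to 3, Robo receptors, Unc5 receptors, and Ntn1, Ntn4, Dcc and Neo1. A probe set, the group of array probes that reads 1 transcript, was taken where its annotation named exactly 1 such symbol. This gave 99 of the 22690 probe sets on the array, for 58 genes. All 99 were matched to a RefSeq gene by gene identifier. The semaphorins made up 33 probe sets of 17 genes, the plexins 11 of 7, the neuropilins 4 of 2, the A-type ephrins 6 of 5 and the B-type ephrins 8 of 3. EphA receptors had 16 probe sets of 8 genes, EphB receptors 3 of 3, the netrin, Dcc and Neo1 set 5 of 4, Unc5 6 of 3, Slit 4 of 3 and Robo 3 of 3. Unc50 came in with 3 probe sets because its symbol begins with the letters Unc5; it is not a netrin receptor, and 96 probe sets of 57 genes remain without it.

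The study compared 3 groups of 3 arrays each: N1E-115 cells overexpressing mouse Tcof1, N1E-115 cells labelled as a Tcof1 knockdown, and wildtype N1E-115 cells. Tcof1 encodes treacle, a nucleolar protein that takes part in ribosomal RNA synthesis and whose human counterpart is mutated in Treacher Collins syndrome, a disorder of tissues formed by the neural crest. The sources used here do not give the construct, the knockdown reagent or the number of clones behind each group. Nothing states that the 3 arrays of a group, lettered A, B and C, came from separate cultures, so the p-values cover array-to-array spread, possibly of technical repeats.

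Axon guidance molecules steer growing nerve fibres and migrating cells, neural crest cells among them. Class 3 semaphorins are secreted and act through a neuropilin, which binds the ligand, and a plexin, which signals; most other semaphorins are bound to the membrane and act on plexins directly. Ephrins sit on the cell surface and activate Eph receptor kinases on neighbouring cells. Netrins act through Dcc, Neo1 and Unc5 receptors, and Slits through Robo receptors.

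The 9 arrays were scaled alike, with trimmed mean intensities of 496.8 to 497.1 and median intensities of 164.1 to 185.95 in the deposited units. Array pairs correlated at 0.972 to 0.978 within groups and 0.956 to 0.978 between groups on the log2 scale, and no 2 arrays were identical. The targeted gene was read by 3 probe sets of Tcof1. Tcof1 1423600_a_at averaged 293.8 ± 80.9 in overexpressed, 126.6 ± 12.6 in knockdown and 149.7 ± 6.60 in wildtype arrays (SD, n = 3 each), and it passed the test in overexpressed over wildtype (log2 fold change 0.87 ± 0.21 SE, limma adjusted p = 0.0241). That call was lost without overexpressed array A or C or wildtype array A or B (0.67, 0.93, 0.84 and 0.90, limma adjusted p = 0.0973, 0.0511, 0.0728 and 0.0688). Tcof1 1423601_s_at differed by 0.63 ± 0.20 (adjusted p = 0.0786, and 0.047 without wildtype array C) and Tcof1 1424643_at by 0.39 ± 0.17 (adjusted p = 0.187) in the same limma comparison. No Tcof1 probe set passed in knockdown over wildtype, where the log2 fold changes were -0.22, -0.40 and 0.06 (limma adjusted p = 0.744, 0.51 and 0.934), so the lowering of Tcof1 named by the label was not detected in the arrays labelled knockdown. In overexpressed over knockdown the same Tcof1 probe sets gave 1.092, 1.025 and 0.333 (limma adjusted p = 0.0116, 0.0137 and 0.267), and only 1424643_at did not pass. Defining markers of the line were bright: Th, the enzyme that starts catecholamine synthesis, averaged 2876 ± 333 in overexpressed, 3598 ± 410 in knockdown and 3685 ± 194 in wildtype arrays (SD, n = 3 each).

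In cells overexpressing Tcof1, transcripts of the semaphorin Sema4d and of Plxnb2, from the plexin family that binds it, were lower than in wildtype cells, and those of the neuropilin Nrp1 were higher. Sema6a was also lower on 1 of its 2 probe sets. That Sema6a probe set was lower still in knockdown cells, without passing against wildtype (limma adjusted p = 0.0673). No guidance ligand or receptor passed the test between knockdown and wildtype cells, where only 0.0133% of all probe sets passed. Sema4d, on 2 of its 3 probe sets, and Nrp1, on 1 of its 3, also passed between overexpressed and knockdown cells. A dim probe set of Epha5 passed there too. That Nrp1 call was lost when any 1 of the arrays compared was left out. Against wildtype, the calls of Plxnb2, Sema6a and 1 Nrp1 probe set were also lost without some single arrays.

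Most of the guidance genes were dim in this line. The mean of the brightest group exceeded 173.8, the median of all values on all arrays, for 35 of the 99 probe sets, and 32 of the 58 genes had no probe set above it. The median guidance probe set lay at percentile 34.1 of brightness, 17 probe sets stayed under 16 units in every group mean, and 6 passed 1000 units in at least 1 group. Those 6 read Sema4d, Plxnb2, Nrp1, Slit2, Unc5b and Unc5c. Since 16 units were added before taking log2, fold changes of dim probe sets are understated, and brightness is not compared here between probe sets of different genes as a level of RNA.

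Over all 99 probe sets, 2 were higher and 4 lower in overexpressed over wildtype at an adjusted p under 0.05 in the limma fit across all 22626 probe sets that are not controls. That is 6.06% of the guidance probe sets, where 9.59% of all probe sets passed, 4.52% higher and 5.07% lower. In overexpressed over knockdown 1 was higher and 3 were lower, 4.04% of the guidance probe sets against 7.57% of all, 3.43% higher and 4.14% lower. In knockdown over wildtype limma called 0 of 99, where 0.0133% of all probe sets passed, 0.00442% higher and 0.00884% lower. At an unadjusted p under 0.05 that comparison had 10 guidance probe sets, 7 higher and 3 lower, with 10.9% of all probe sets under that limit. The unadjusted count was 23 in overexpressed over wildtype, with 23.0% of all probe sets, and 18 in overexpressed over knockdown, with 22.5%. No difference between these shares was tested, and with so few calls on the whole array in knockdown over wildtype a count of 0 among 99 carries no information on the guidance genes. No Unc50 probe set was called.

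The values of the 3 arrays of one group lay wholly above or below those of the other for 30 guidance probe sets in overexpressed over wildtype, 8 higher and 22 lower. This is 30.3% beside a background of 27.8% over all probe sets, of which 13.3% were higher and 14.4% lower. Such separation held for 13 higher and 4 lower probe sets in knockdown over wildtype (17.2% beside 15.6% of all, 8.63% higher and 7.01% lower). It held for 5 higher and 17 lower in overexpressed over knockdown (22.2% beside 28.1% of all, 12.9% higher and 15.2% lower). The median log2 fold change of the guidance probe sets was -0.10 in overexpressed over wildtype, beside -0.02 over all probe sets. It was 0.07 in knockdown over wildtype, beside 0.03, and -0.15 in overexpressed over knockdown, beside -0.05. The comparisons share arrays, so these medians are not independent of each other.

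**Figure D1:**
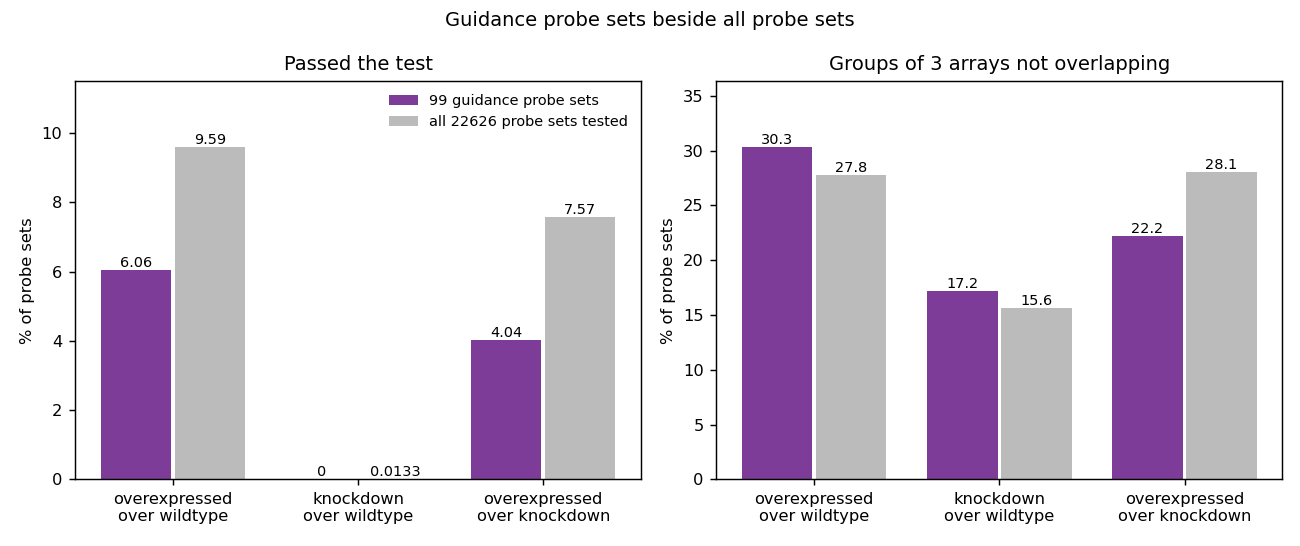
Shares of the 99 guidance probe sets (purple) and of all 22626 tested probe sets (grey), in percent, that passed an adjusted p under 0.05 (left) or whose groups of 3 arrays did not overlap (right), for the 3 comparisons. The guidance share that passed in overexpressed over wildtype was 6.06% beside 9.59% of all, and the share not overlapping was 30.3% beside 27.8%.

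**Figure D2:**
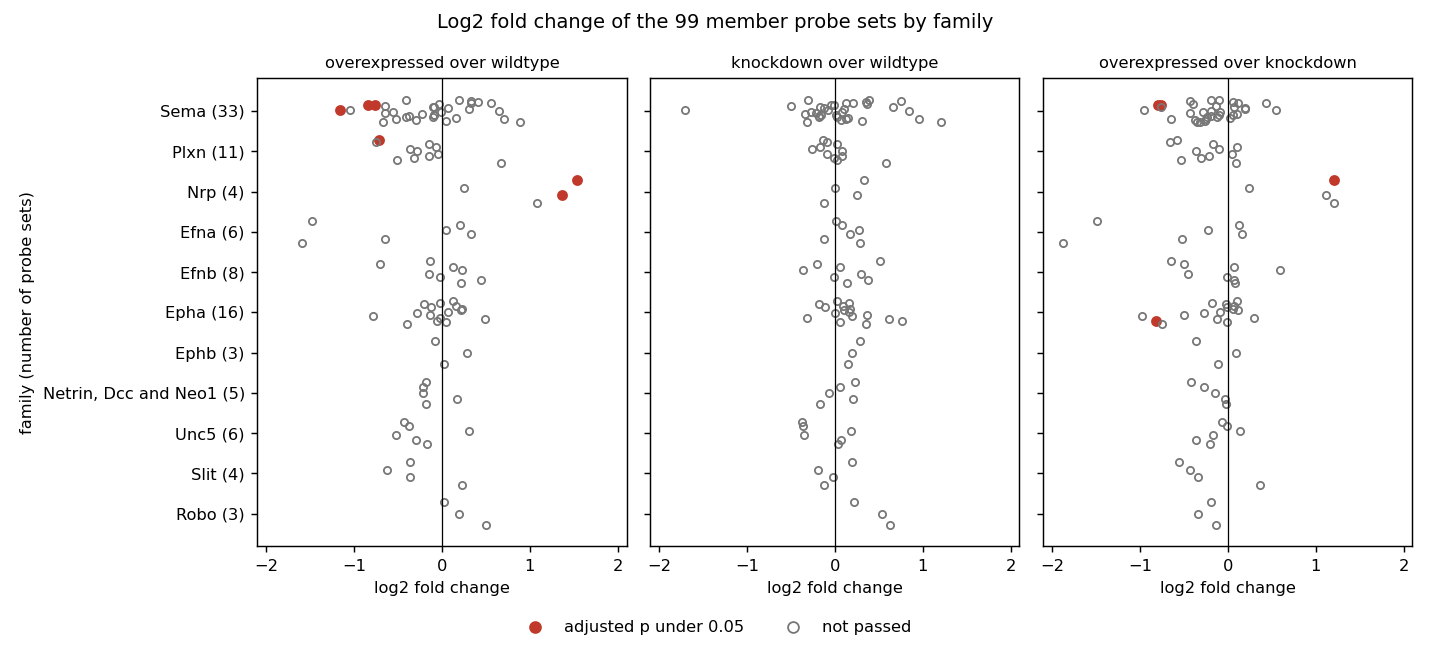
Log2 fold change of each of the 99 guidance probe sets by family (each point 1 probe set, family sizes in brackets) in the 3 comparisons; filled points passed an adjusted p under 0.05. In overexpressed over wildtype the filled points are 3 semaphorin and 1 plexin probe sets below 0 and 2 neuropilin probe sets above 0, and no point is filled in knockdown over wildtype.

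The stretch of 250 bases before the outermost RefSeq transcript start is shown for Nrp1, Plxnb2 and Sema4d, the 3 genes with a bright probe set that passed, because Sema4d and Plxnb2 were lower and Nrp1 higher in the same cells. Coordinates are of GRCm38.p6, and each sequence is written 5′ to 3′ on the gene's strand. Capitals mark matches on either strand to the GC box GGGCGG bound by Sp1 family factors, the E2F core TTCCCGC or the E-box CACGTG bound by Myc; a GC box and an E2F core on opposite strands can share bases. The Nrp1 window is chr8:128358823-128359072 on the plus strand, the Plxnb2 window chr15:89180789-89181038 on the minus strand and the Sema4d window chr13:51756684-51756933 on the minus strand.
Nrp1: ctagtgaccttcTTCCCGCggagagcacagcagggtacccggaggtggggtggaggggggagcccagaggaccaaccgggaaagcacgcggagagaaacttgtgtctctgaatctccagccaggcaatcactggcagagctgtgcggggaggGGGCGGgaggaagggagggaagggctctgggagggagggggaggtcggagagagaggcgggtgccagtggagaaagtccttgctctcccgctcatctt
Plxnb2: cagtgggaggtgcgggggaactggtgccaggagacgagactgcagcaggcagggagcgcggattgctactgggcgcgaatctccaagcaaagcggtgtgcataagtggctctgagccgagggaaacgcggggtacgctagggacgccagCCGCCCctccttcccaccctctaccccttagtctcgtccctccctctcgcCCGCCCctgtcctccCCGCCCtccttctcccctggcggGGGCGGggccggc
Sema4d: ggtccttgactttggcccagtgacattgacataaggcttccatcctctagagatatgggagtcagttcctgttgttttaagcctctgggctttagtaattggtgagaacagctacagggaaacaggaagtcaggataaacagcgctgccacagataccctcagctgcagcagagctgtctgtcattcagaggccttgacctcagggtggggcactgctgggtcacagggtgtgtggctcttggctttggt

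The Nrp1 window held 1 GC box and 1 E2F core and was 64.4% G and C. The Plxnb2 window held 4 GC boxes and was 69.2% G and C. The Sema4d window held none of the 3 motifs and was 52.0% G and C. The median was 52.4% over 32851 windows of this length before annotated RefSeq starts. A gene with several starts can give several of these windows. In those windows the GC box occurred in 32.7%, the E2F core in 3.8% and the E-box in 6.0%. Plxnb2 has 2 and Sema4d 3 annotated starts, so a window before another start would read differently.

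Sema4d, also known as CD100, is a membrane-bound class 4 semaphorin whose receptors are plexins of the B family. Its brightest probe set, Sema4d 1420824_at, read 1171.6, 1298.2 and 1169.9 in overexpressed arrays, 1928.3, 2368.4 and 1921.1 in knockdown arrays and 2191.2, 2130.1 and 1910.1 in wildtype arrays. Every overexpressed array was below every array of both other groups, which overlapped each other. The log2 fold change of overexpressed over wildtype was -0.77 ± 0.10 (SE), a level 1.70-fold lower (limma adjusted p = 0.00164), and that of overexpressed over knockdown was -0.76 ± 0.10 (limma adjusted p = 0.0025). Knockdown over wildtype gave -0.01, with a 95% interval of -0.24 to 0.22 (limma adjusted p = 0.984).

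Another probe set of the gene gave the same order of groups at lower brightness. Sema4d 1420823_at read 183.9, 246.5 and 277.1 in overexpressed arrays, 368.8, 420.5 and 462.9 in knockdown arrays and 473.4, 438.7 and 379.1 in wildtype arrays. Overexpressed arrays were again below all others, by -0.84 ± 0.17 against wildtype (limma adjusted p = 0.0116) and -0.80 ± 0.17 against knockdown (limma adjusted p = 0.0192). Without overexpressed array A, knockdown array B or knockdown array C the call against knockdown was lost (-0.64, -0.79 and -0.72, limma adjusted p = 0.0678, 0.0588 and 0.0662). The remaining one, Sema4d 1434596_at, was dim at 20.7 ± 22.3 in overexpressed, 17.8 ± 19.9 in knockdown and 25.0 ± 16.6 in wildtype arrays (SD, n = 3 each) and did not follow the bright pair.

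Sema6a, a membrane-bound class 6 semaphorin that binds plexins of the A family, had 2 probe sets. Sema6a 1425903_at read 21.9, 25.4 and 35.3 in overexpressed arrays, 16.1, 15.4 and 9.7 in knockdown arrays and 82.9, 103.7 and 60.7 in wildtype arrays. Wildtype arrays lay above all others, and overexpressed arrays lay above knockdown arrays. All 3 groups were below the median of all values, and the knockdown arrays were at about the 16 units added before log2. Overexpressed over wildtype was -1.17 ± 0.25 (limma adjusted p = 0.015), a call lost without overexpressed array A, overexpressed array B or wildtype array B (-1.07, -1.14 and -1.01, limma adjusted p = 0.0627, 0.0526 and 0.0623). Knockdown over wildtype was -1.71 ± 0.25 and did not pass (limma adjusted p = 0.0673); it had the smallest adjusted p of all guidance probe sets in that comparison, and it passed without wildtype array C (-1.88, limma adjusted p = 0.0299).

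The brighter probe set, Sema6a 1421414_a_at, read 146.4, 188.7 and 94.9 in overexpressed arrays, 204.0, 163.6 and 108.9 in knockdown arrays and 204.2, 265.8 and 210.4 in wildtype arrays. Wildtype arrays were again above those of both other groups, narrowly so for knockdown array A. Neither comparison passed: overexpressed over wildtype was -0.64 ± 0.28 (limma adjusted p = 0.189) and knockdown over wildtype -0.50 (limma adjusted p = 0.544).

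Among the other 30 semaphorin probe sets none was called in any comparison. Sema7a, a semaphorin held by a lipid anchor, and the membrane-bound Sema6b ran the other way from Sema4d and Sema6a. Sema7a 1459903_at read 128.3, 117.6 and 130.6 in overexpressed arrays, 137.4, 153.7 and 194.7 in knockdown arrays and 59.2, 30.4 and 113.2 in wildtype arrays. Sema6b 1448790_at, the only probe set of its gene, read 177.0, 245.9 and 155.3 in overexpressed arrays, 218.7, 336.9 and 159.4 in knockdown arrays and 119.3, 121.8 and 90.5 in wildtype arrays. For both, every wildtype array was below all 6 others.

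Neither gene passed the test. For Sema7a 1459903_at the log2 fold change was 0.88 ± 0.33 in overexpressed over wildtype (limma adjusted p = 0.133) and 1.20 ± 0.33 in knockdown over wildtype (limma adjusted p = 0.247), and without wildtype array C the overexpressed value was 1.26 and passed (limma adjusted p = 0.0204). For Sema6b it was 0.71 ± 0.27 (limma adjusted p = 0.143) and 0.96 ± 0.27 (limma adjusted p = 0.264). The dimmer Sema7a 1422040_at averaged 16.3 ± 19.6 in overexpressed, 35.9 ± 20.1 in knockdown and 15.7 ± 9.27 in wildtype arrays (SD, n = 3 each), with overlapping groups.

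Class 4 members other than Sema4d were measured at moderate brightness and none passed. Sema4b 1455678_at averaged 310.7 ± 1.59 in overexpressed, 412.6 ± 135 in knockdown and 535.8 ± 237 in wildtype arrays (SD, n = 3 each), with overexpressed arrays between 308.9 and 311.7 and wildtype arrays between 325.0 and 792.1. Sema4g averaged 133.0 ± 9.40 in overexpressed, 223.1 ± 66.0 in knockdown and 198.8 ± 13.6 in wildtype arrays. Sema4a 1448110_at averaged 191.0 ± 50.1, 224.1 ± 28.4 and 259.3 ± 67.8 in overexpressed, knockdown and wildtype arrays, and Sema4f averaged 220.6 ± 14.4, 256.0 ± 31.2 and 198.7 ± 66.9 in the same order of groups. For Sema4b 1455678_at and Sema4g all overexpressed arrays were below all wildtype arrays, while those of Sema4a 1448110_at and Sema4f overlapped. The other Sema4a probe set, 1438934_x_at, did separate them, with 162.3, 167.8 and 121.0 in overexpressed arrays, 179.6, 161.1 and 178.6 in knockdown arrays and 199.3, 173.5 and 227.1 in wildtype arrays.

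The secreted class 3 semaphorins, the ligands of neuropilins, were all dim: no probe set of Sema3a, Sema3b, Sema3c, Sema3e or Sema3f had a group mean above the median of all values. Sema3f 1425840_a_at read 20.0, 34.7 and 66.7 in overexpressed arrays, 103.7, 46.0 and 133.7 in knockdown arrays and 97.7, 70.6 and 118.3 in wildtype arrays. Its overexpressed arrays were all below its wildtype arrays (limma adjusted p = 0.132), while the gene's other probe set, 1420508_at, overlapped. Sema3c averaged 88.1 ± 27.0 in overexpressed, 121.1 ± 33.0 in knockdown and 88.7 ± 8.0 in wildtype arrays (SD, n = 3 each). Sema3e, which acts on Plxnd1 without a neuropilin, was at the floor: Sema3e 1419717_at read 2.7, 14.7 and 1.3 in overexpressed arrays, 10.6, 16.1 and 12.2 in knockdown arrays and 2.3, 0.8 and 0.3 in wildtype arrays. Its knockdown over wildtype difference, 0.76 ± 0.22, did not pass (limma adjusted p = 0.271) and lies under the added 16 units. Sema3e 1425906_a_at averaged 17.3 ± 14.5 in overexpressed, 22.1 ± 16.6 in knockdown and 4.17 ± 2.70 in wildtype arrays. Its knockdown arrays were above its wildtype arrays (0.84, limma adjusted p = 0.414). Sema3e 1427673_a_at had group means of 3.1 to 4.33 units (knockdown over wildtype 0.08, limma adjusted p = 0.894). Sema6c 1451898_a_at at 371.4 ± 46.9 in overexpressed, 450.5 ± 90.1 in knockdown and 357.8 ± 33.9 in wildtype arrays and Sema6d at 187.3 ± 19.6, 206.2 ± 27.1 and 204.0 ± 36.0 were not called, and their groups overlapped in all 3 comparisons.

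**Figure D3:**
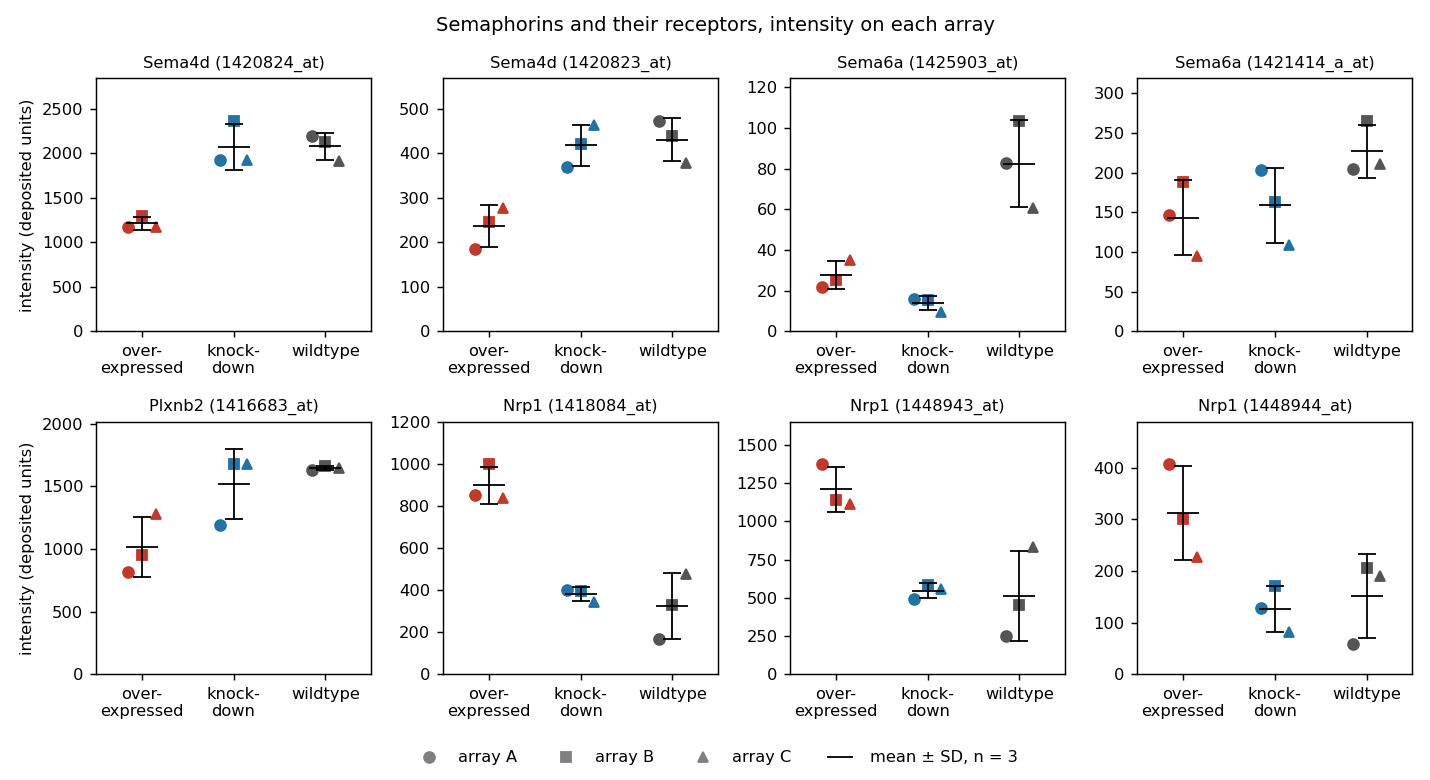
Intensity in deposited units on each of the 9 arrays (symbols A, B and C), with the mean and SD of 3 arrays, for Sema4d, Sema6a, Plxnb2 and Nrp1 probe sets in overexpressed, knockdown and wildtype cells. Both Sema4d probe sets are lowest in all 3 overexpressed arrays, and all 3 Nrp1 probe sets are highest there, at 839.4 to 1001.7 for Nrp1 1418084_at.

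Plxnb2 is a plexin of the B family, receptors of class 4 semaphorins, and was read by 1 probe set. It had 813.6, 953.1 and 1279.2 units in overexpressed arrays, 1193.1, 1675.8 and 1679.1 in knockdown arrays and 1625.5, 1658.9 and 1646.2 in wildtype arrays. All overexpressed arrays were below all wildtype arrays, which differed little among themselves, whereas overexpressed array C was above knockdown array A. The log2 fold change of Plxnb2 in overexpressed over wildtype was -0.71 ± 0.17, 1.64-fold lower (limma adjusted p = 0.0235); in knockdown over wildtype it was -0.13, with a 95% interval of -0.50 to 0.24.

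The Plxnb2 call did not hold under all alternatives. It was lost without overexpressed array A or B and without wildtype array A or B (log2 fold changes -0.57, -0.68, -0.72 and -0.71, limma adjusted p = 0.0855, 0.0786, 0.0611 and 0.0785). Overexpressed over knockdown was -0.58 ± 0.17 for Plxnb2 and did not pass (limma adjusted p = 0.0633), but passed without overexpressed array C or knockdown array A (limma adjusted p = 0.0246 and 0.0352).

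Of the 11 plexin probe sets 10 had a log2 fold change below 0 in overexpressed over wildtype, beside 60 of all 99 guidance probe sets. The plexin median was -0.28, beside -0.02 over all probe sets. Groups did not overlap for 5 plexin probe sets, and Plxnb2 alone passed. Plxnc1 gave 4 of the 11 and Plxna3 gave 2, so the 11 are not independent. Over all probe sets in this comparison 27.8% had groups that did not overlap (13.3% higher and 14.4% lower), and 9.59% passed. In knockdown over wildtype 5 were above 0 and 6 below. Plxnd1, the receptor of Sema3e, read 182.5, 227.7 and 173.9 in overexpressed arrays, 285.3, 339.5 and 243.3 in knockdown arrays and 260.0, 279.3 and 307.2 in wildtype arrays. Overexpressed arrays of Plxnd1 were below all others, and the difference from wildtype of -0.51 ± 0.17 did not pass (limma adjusted p = 0.097). Plxnd1, like Efna1, Unc5c, Slit3, Sema3f, Sema4a, Sema4b and the members given by group means alone, was picked out after its values were seen.

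Plxnc1, the receptor of Sema7a, had 4 probe sets between 121.1 and 311.4 units in every group mean, none of them called. Plxna3, which pairs with neuropilins, averaged 565.3 ± 98.1 in overexpressed, 529.2 ± 105 in knockdown and 592.7 ± 81.4 in wildtype arrays on Plxna3 1420996_at (SD, n = 3 each). Plxna1 averaged 156.1 ± 15.8, 169.3 ± 28.1 and 206.7 ± 33.5 in overexpressed, knockdown and wildtype arrays. Plxnb3, the other B family plexin measured, averaged 82.1 ± 43.1, 131.8 ± 27.3 and 141.5 ± 30.3 in that order, with overlapping groups and no call. Plxna2 was dim and scattered at 49.6 ± 20.1, 54.3 ± 48.6 and 28.9 ± 28.3, and was the only plexin above 0 in overexpressed over wildtype.

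Nrp1, the coreceptor that binds class 3 semaphorins and also vascular endothelial growth factor, had 3 probe sets. Nrp1 1418084_at read 855.3, 1001.7 and 839.4 in overexpressed arrays, 402.4, 397.2 and 343.2 in knockdown arrays and 167.4, 329.8 and 479.8 in wildtype arrays. Nrp1 1448943_at read 1375.6, 1139.2 and 1109.8 in overexpressed arrays, 492.4, 586.3 and 559.5 in knockdown arrays and 249.3, 454.9 and 829.7 in wildtype arrays. On both, every overexpressed array was above every other array, and the wildtype arrays were spread more widely than either other group. Nrp1 1448944_at read 407.9, 301.3 and 226.9 in overexpressed arrays, 128.1, 170.7 and 82.4 in knockdown arrays and 59.4, 206.2 and 190.9 in wildtype arrays. Here too every overexpressed array was above every other array, while the knockdown mean was below the wildtype mean, unlike on the other two.

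The rise of Nrp1 in overexpressed over wildtype was 1.53 ± 0.28 on the log2 scale for 1418084_at, 2.89-fold (limma adjusted p = 0.00732), and 1.37 ± 0.32 for 1448943_at, 2.58-fold (limma adjusted p = 0.0211). Nrp1 1448944_at did not pass at 1.08 ± 0.41 (limma adjusted p = 0.134). The sizes depended on the wildtype arrays: without wildtype array A they were 1.14 for Nrp1 1418084_at and 0.95 for 1448943_at, and without wildtype array C 1.86 and 1.79. Nrp1 1448943_at lost its call without overexpressed array A, overexpressed array B or wildtype array B (1.27, 1.41 and 1.36, limma adjusted p = 0.0779, 0.0581 and 0.0698).

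Against knockdown cells, Nrp1 in overexpressed cells was higher by 1.20 ± 0.28 on 1418084_at (limma adjusted p = 0.0276), 1.12 ± 0.32 on 1448943_at (limma adjusted p = 0.0565) and 1.21 on 1448944_at (limma adjusted p = 0.102). Leaving out any 1 of the 6 arrays compared ended the Nrp1 1418084_at call (limma adjusted p = 0.0609 to 0.0886), while 1448943_at passed without wildtype array A or C (limma adjusted p = 0.00851 and 0.00901). Knockdown and wildtype cells did not differ by the test, at 0.33 for Nrp1 1418084_at with a 95% interval of -0.29 to 0.95 and at 0.25 for 1448943_at with one of -0.45 to 0.94; without wildtype array A these values were -0.06 and -0.17.

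Nrp2, the coreceptor of Sema3f, had 1 probe set and no such difference. It read 769.1, 632.0 and 1155.1 in overexpressed arrays, 673.9, 844.2 and 590.5 in knockdown arrays and 597.1, 733.8 and 756.7 in wildtype arrays. The groups overlapped, and overexpressed over wildtype was 0.25 with a 95% interval of -0.21 to 0.70 (limma adjusted p = 0.556).

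No ephrin probe set was called in any comparison. Efna1, an A-type ephrin held by a lipid anchor, had the lowest log2 fold changes of all guidance probe sets in overexpressed over wildtype, and none passed. Efna1 1416895_at read 17.0, 84.0 and 15.7 in overexpressed arrays, 125.2, 110.9 and 113.3 in knockdown arrays and 158.1, 121.1 and 79.0 in wildtype arrays. Efna1 1448510_at read 16.2, 8.1 and 15.8 in overexpressed arrays, 83.9, 78.4 and 112.1 in knockdown arrays and 126.2, 142.4 and 13.9 in wildtype arrays. Single arrays stood apart, namely overexpressed array B on the first and wildtype array C on the second, and on both probe sets all overexpressed arrays were below all knockdown arrays.

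For Efna1, overexpressed over wildtype was -1.48 ± 0.42 on 1416895_at (limma adjusted p = 0.0506) and -1.59 ± 0.53 on 1448510_at (limma adjusted p = 0.0892). Without overexpressed array B the first was -2.02 (limma adjusted p = 0.00725), and without wildtype array C the first was -1.71 (limma adjusted p = 0.0437) and the second -2.37 (limma adjusted p = 0.00106). Overexpressed over knockdown was -1.49 (limma adjusted p = 0.0565) and -1.87 ± 0.53 (limma adjusted p = 0.0576) on the 2 Efna1 probe sets; without overexpressed array B the first was -2.03 (limma adjusted p = 0.00942), and without wildtype array A or C the second passed (limma adjusted p = 0.0494 and 0.00309).

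Efna3, the neighbouring coding gene of Efna1 on chromosome 3 with Efna4 beside it, read 165.7, 177.6 and 191.1 in overexpressed arrays, 264.7, 291.5 and 232.8 in knockdown arrays and 370.9, 285.4 and 222.7 in wildtype arrays. Overexpressed arrays were below all others. The Efna3 difference from wildtype, -0.65 ± 0.19, did not pass (limma adjusted p = 0.0622) and passed without wildtype array C (-0.82, limma adjusted p = 0.0223). Efna4 did not share the pattern, at 155.8 ± 38.2 in overexpressed, 185.3 ± 50.4 in knockdown and 148.5 ± 17.8 in wildtype arrays (SD, n = 3 each). Efna2 and Efna5 averaged 164.2 ± 67.2 and 122.8 ± 13.8 in overexpressed arrays and 133.2 ± 8.65 and 96.7 ± 30.2 in wildtype arrays, within their spread.

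The B-type ephrins, which cross the membrane, were all under the median of all values. The brightest in wildtype arrays, Efnb1 1418286_a_at, read 79.8, 83.9 and 34.2 in overexpressed arrays, 120.6, 76.0 and 92.2 in knockdown arrays and 115.3, 127.6 and 94.2 in wildtype arrays. Overexpressed arrays were below wildtype arrays, by -0.70, without passing (limma adjusted p = 0.194), and the gene's other 2 probe sets did not separate overexpressed from wildtype arrays. Efnb2 and Efnb3 probe sets overlapped in every comparison.

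Of the Eph receptors, Epha8 alone had a group mean above the median of all values. It read 171.3, 284.5 and 133.4 in overexpressed arrays, 177.1, 174.7 and 168.9 in knockdown arrays and 152.9, 170.2 and 188.5 in wildtype arrays, and the groups overlapped (overexpressed over wildtype 0.13, limma adjusted p = 0.839). Epha7, a receptor of A-type ephrins, read 47.6, 37.2 and 51.6 in overexpressed arrays, 132.2, 117.7 and 72.3 in knockdown arrays and 73.5, 105.6 and 91.0 in wildtype arrays on 1427528_a_at. Overexpressed arrays were below all others on this Epha7 probe set, by -0.98 ± 0.27 against knockdown (limma adjusted p = 0.0501) and -0.78 ± 0.27 against wildtype (limma adjusted p = 0.0962), neither of which passed. The value against knockdown passed without knockdown array C (-1.20, limma adjusted p = 0.0354) and under 4 other alternatives (limma adjusted p = 0.0376 to 0.0495). The dimmer Epha7 1452380_at had the same order, at 14.2 ± 6.79 in overexpressed, 34.8 ± 11.5 in knockdown and 23.2 ± 0.55 in wildtype arrays (SD, n = 3 each), and Epha7 1451991_at was at 1.0 to 1.67 units in the group means.

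Epha5, another receptor of A-type ephrins, was the 1 Eph receptor called, at a brightness near the floor. Epha5 1437920_at read 5.2, 2.8 and 3.6 in overexpressed arrays, 22.2, 14.2 and 21.3 in knockdown arrays and 4.2, 4.9 and 4.8 in wildtype arrays. The knockdown arrays stood above both other groups. Overexpressed over knockdown was -0.82 ± 0.17 (limma adjusted p = 0.0167), knockdown over wildtype 0.76 ± 0.17 (limma adjusted p = 0.148) and overexpressed over wildtype -0.06 (limma adjusted p = 0.908). The size depended on the added constant, at -2.06 with 1 unit and -0.29 with 64 units, and the call was lost without overexpressed array B (-0.78, limma adjusted p = 0.0583) or knockdown array A (-0.76, limma adjusted p = 0.0528). The brighter Epha5 1420557_at did not pass in overexpressed over knockdown (-0.18, limma adjusted p = 0.838), with a 95% interval of -1.05 to 0.69 that includes the value of the other probe set.

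The other EphA receptors, Epha1, Epha2, Epha3, Epha4 and Epha6, had group means of at most 104.2 units, and Ephb3, Ephb4 and Ephb6 of at most 27.3 units. None of them was called. Ephb4 read 22.3, 21.4 and 38.1 in overexpressed arrays, 20.8, 23.2 and 28.4 in knockdown arrays and 20.4, 19.0 and 17.7 in wildtype arrays, with the lowest values in wildtype and no call (overexpressed over wildtype 0.28, limma adjusted p = 0.519).

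None of the probe sets of Ntn1, Ntn4, Dcc, Neo1 and the Unc5 receptors was called in any comparison. The netrin Ntn3, which is outside the chosen symbols, is given below with the other guidance genes. Unc5 receptors are those through which netrins repel axons. Unc5b read 1380.5, 1531.7 and 2028.7 in overexpressed arrays, 1498.3, 1620.3 and 1335.7 in knockdown arrays and 1379.6, 1353.7 and 1192.6 in wildtype arrays. The lowest overexpressed value stood just above the highest wildtype value, and the difference of 0.31, with a 95% interval of 0.01 to 0.62, did not pass after adjustment (limma adjusted p = 0.205). Unc5c 1419592_at read 549.3, 632.7 and 612.4 in overexpressed arrays, 510.6, 751.7 and 633.0 in knockdown arrays and 775.6, 945.5 and 733.7 in wildtype arrays. Its overexpressed arrays were below its wildtype arrays by -0.44 ± 0.15, which did not pass (limma adjusted p = 0.0983). The brighter Unc5c 1449522_at overlapped, at 913.0 ± 106 in overexpressed, 1067 ± 227 in knockdown and 1027 ± 81.1 in wildtype arrays (SD, n = 3 each).

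Neo1, a receptor of netrins and of repulsive guidance molecules, read 296.8, 265.7 and 296.8 in overexpressed arrays, 327.1, 420.7 and 233.4 in knockdown arrays and 407.9, 336.4 and 275.0 in wildtype arrays, which overlapped (overexpressed over wildtype -0.22, limma adjusted p = 0.627). Dcc, the receptor through which netrins attract axons, averaged 166.3 ± 22.5 in overexpressed, 227.4 ± 26.7 in knockdown and 190.5 ± 2.08 in wildtype arrays (SD, n = 3 each). Its overexpressed arrays were below its wildtype arrays and its knockdown arrays above them, and neither difference passed. Ntn1 1422987_at averaged 65.7 ± 21.8, 84.9 ± 37.7 and 76.4 ± 10.2 in overexpressed, knockdown and wildtype arrays, and the group means of Ntn4 were at most 9.40 units.

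Slit2 is a secreted ligand that repels axons through Robo receptors. Slit2 1424659_at read 692.1, 825.3 and 865.0 in overexpressed arrays, 1086.1, 1319.7 and 1108.4 in knockdown arrays and 649.3, 1336.4 and 1221.0 in wildtype arrays. All overexpressed arrays were below all knockdown arrays, while wildtype array A was the lowest of the 9. Overexpressed over wildtype was -0.36 and did not pass (limma adjusted p = 0.401). Without wildtype array A it was -0.68 and passed (limma adjusted p = 0.0149). The dim Slit2 1451430_at averaged 25.2 ± 15.4 in overexpressed, 36.3 ± 19.5 in knockdown and 34.1 ± 2.48 in wildtype arrays. Its groups overlapped (overexpressed over wildtype -0.36, limma adjusted p = 0.65). Slit3 averaged 650.7 ± 55.5 in overexpressed, 505.1 ± 65.5 in knockdown and 563.2 ± 146 in wildtype arrays (SD, n = 3 each), and Slit1 24.9 ± 17.0, 36.1 ± 4.05 and 43.6 ± 3.45; neither was called.

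The Robo receptors were dim, with group means of 3.47 to 163.3 units. Robo4, known mainly from blood vessels, read 121.7, 120.4 and 131.9 in overexpressed arrays, 179.4, 179.1 and 131.5 in knockdown arrays and 84.1, 123.1 and 116.8 in wildtype arrays. Knockdown arrays were above wildtype arrays, and no Robo4 comparison passed (overexpressed over wildtype 0.20, limma adjusted p = 0.686). Unc50 had 3 probe sets and no call; Unc50 1421982_a_at averaged 667.3 ± 96.0 in overexpressed, 669.0 ± 72.6 in knockdown and 868.5 ± 118 in wildtype arrays (SD, n = 3 each).

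**Figure D4:**
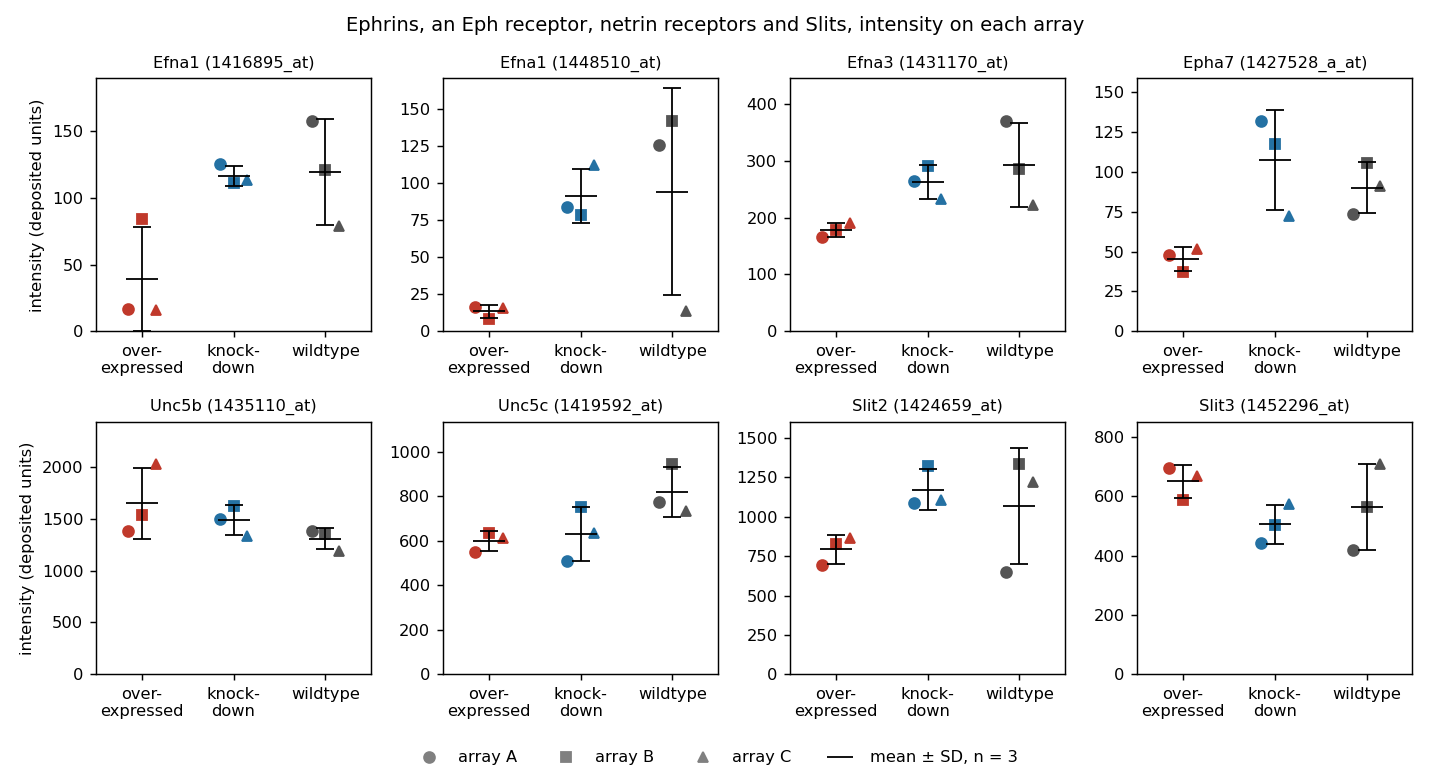
Intensity in deposited units on each of the 9 arrays, with the mean and SD of 3 arrays, for Efna1, Efna3, Epha7, Unc5b, Unc5c, Slit2 and Slit3 probe sets in overexpressed, knockdown and wildtype cells. No probe set shown passed the test; overexpressed array B stands apart on Efna1 1416895_at at 84.0 units, wildtype array C on Efna1 1448510_at at 13.9 and wildtype array A on Slit2 at 649.3.

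Probe sets of one gene did not always move together. Among the 26 genes with several probe sets, all had the same sign in 13 genes in overexpressed over wildtype, in 10 in knockdown over wildtype and in 13 in overexpressed over knockdown. With only probe sets whose brightest group mean was above the median of all values, 7 genes still had several, and their signs matched in 7, 3 and 6 genes in these comparisons.

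Downstream of the receptors, 61 of 77 listed genes of guidance signalling, read by their brightest probe set, were on the array: 0 rose and 6 fell in overexpressed over wildtype. This is 9.84% of the list beside 9.59% of all probe sets, with a median log2 fold change of -0.13. Shares over all probe sets include dim and repeated probe sets of a gene, so they are not a matched background for such lists. Rras, a small GTPase on which the catalytic domain of plexins was reported to act, averaged 586.6 ± 118 in overexpressed and 1724 ± 479 in wildtype arrays (SD, n = 3 each; log2 fold change -1.51 ± 0.20, limma adjusted p = 0.00164). Ablim1, an actin-binding LIM protein, fell by 1.07 ± 0.17, and Dpysl5, of the collapsin response mediator family of semaphorin signalling, fell by 1.10 ± 0.21. Srgap2, of the Slit-Robo GAP family, fell by 0.62 ± 0.11. Sdcbp, the adaptor syntenin, fell by 0.53 ± 0.11 on the log2 scale (limma adjusted p = 0.0129), a call lost without overexpressed array B or wildtype array B (-0.48 and -0.46). Nck2, an adaptor that links receptors to actin, fell by 0.46 ± 0.10 (limma adjusted p = 0.0143), a call lost without overexpressed array A, overexpressed array C or wildtype array B (-0.42, -0.42 and -0.46).

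None of these 61 genes passed in knockdown over wildtype, where 0.0133% of all probe sets passed. In overexpressed over knockdown 1 rose, Rasa1, a GTPase activator for Ras (0.58), and 6 fell, among them Rras (-1.32), Dpysl5 (-0.84), Srgap2 (-0.52), Nck2 (-0.37) and Cdc42 (-0.29). This is 11.5% of the list beside 7.57% of all probe sets. Of these 6 named calls against knockdown, that of Rras alone was kept without each array in turn. The other 3 probe sets of Cdc42 had log2 fold changes of -0.07, 0.001 and 0.04 and were not called.

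Of 56 other guidance ligands, receptors and coreceptors listed, 42 were measured, again on the brightest probe set of each gene. In overexpressed over wildtype 2 rose and 3 fell, 11.9% beside 9.59% of all probe sets, with a median log2 fold change of 0.01. Nrcam, an adhesion molecule of the L1 family that can form part of semaphorin receptors, averaged 581.5 ± 90.0 in overexpressed and 1201 ± 111 in wildtype arrays (SD, n = 3 each; -1.03 ± 0.12, limma adjusted p = 0.000806). Gpc1, a heparan sulfate proteoglycan that binds Slits, fell by 0.73 ± 0.15 (limma adjusted p = 0.0145), and L1cam, a partner of Nrp1, fell by 0.44 ± 0.12 (limma adjusted p = 0.0487). Ryk, a Wnt receptor, rose by 0.59 ± 0.13 (limma adjusted p = 0.0174) and the netrin Ntn3 by 0.93 ± 0.22 (limma adjusted p = 0.0243).

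Nrcam kept its call without each array in turn, and the other 4 did not. Gpc1 lost it without overexpressed array A or wildtype array B (-0.60 and -0.66), Ryk without overexpressed array B, wildtype array A or wildtype array B (0.47, 0.54 and 0.59), and Ntn3 without any 1 overexpressed array, wildtype array A or wildtype array B (limma adjusted p = 0.0558 to 0.0838). L1cam lost it without each array but knockdown array B. In overexpressed over knockdown Adam10, a protease that cleaves ephrins and other membrane proteins, rose (0.52), and Lrig1, a membrane protein with leucine-rich repeats (-1.27), Gpc1 (-0.95) and Nrcam (-0.87) fell. These calls made up 9.52% of the 42 genes, beside 7.57% of all probe sets. Of the other 2 probe sets of Lrig1 one also fell (-1.54) and one had a log2 fold change of 0.27 and was not called, and Adam10 was no longer called without overexpressed array A or B or any 1 knockdown array (0.43 to 0.53). Lrig1 averaged 150.6 ± 17.5 in overexpressed, 384.5 ± 28.6 in knockdown and 173.1 ± 29.7 in wildtype arrays (SD, n = 3 each), so that the knockdown arrays stood above both other groups. None of the 42 passed in knockdown over wildtype, where 0.0133% of all probe sets passed and Lrig1 had a limma adjusted p of 0.0701.

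**Figure D5:**
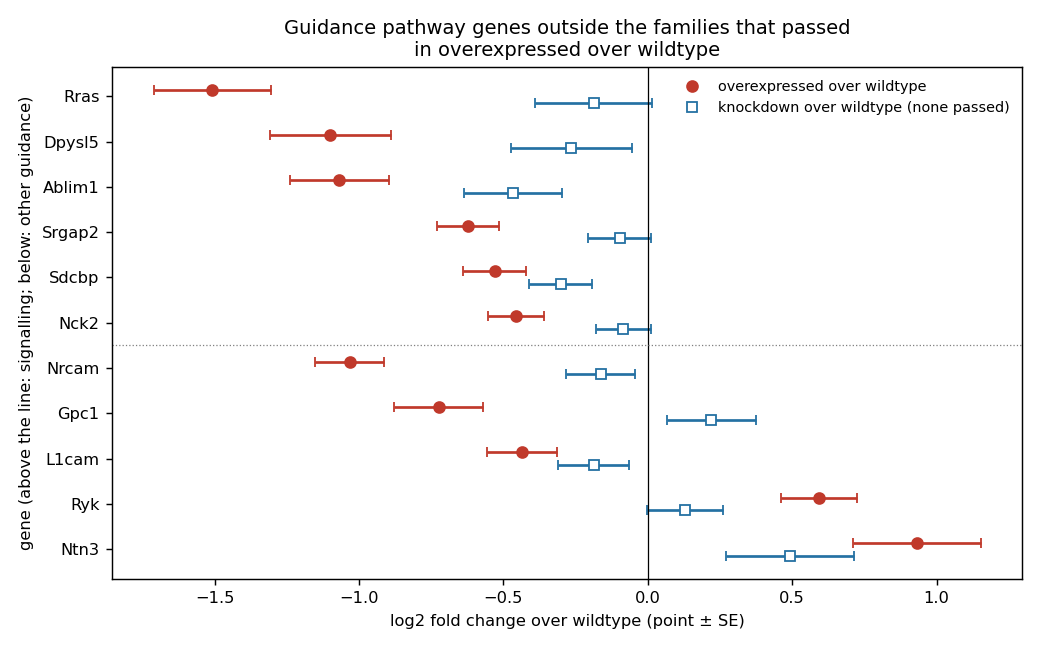
Log2 fold change over wildtype with its SE for the 11 guidance pathway genes outside the ligand and receptor families that passed in overexpressed over wildtype (red circles), with the same genes in knockdown over wildtype (blue squares, none passed). Signalling genes stand above the dotted line, with Rras lowest at -1.51, and other guidance genes below it, with Ntn3 highest at 0.93.

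Markers of cell types differed between the groups as well. In arrays of whole cultures, fewer cells of a type and less RNA per cell cannot be told apart. Each marker was read by the brightest probe set of its gene. The shares over all probe sets include dim and repeated probe sets, so they are not a matched background for the marker lists. Of 14 neuron markers 11 were above the median of all values. The summed intensity of the list ran from 25700 to 27410 in overexpressed, 32900 to 36210 in knockdown and 33240 to 34100 in wildtype arrays. In overexpressed over wildtype 4 of the 14, Eno2, Ache, Uchl1 and Stmn2, fell and none rose. This is 28.6% beside 9.59% of all probe sets. In overexpressed over knockdown 5 fell and none rose, 35.7% beside 7.57% of all. Of 12 sympathoadrenal markers 11 were above that median. Their list had sums of 36920 to 40660 in overexpressed, 40190 to 43110 in knockdown and 40110 to 43430 in wildtype arrays. In overexpressed over wildtype Dbh and Isl1 rose and Chga fell, 25.0% beside 9.59% of all probe sets. In overexpressed over knockdown 1 rose and 2 fell, 25.0% beside 7.57% of all. Markers of other cell types were mostly under the median: 1 of 9 for fibroblasts (sums 503.7 to 651.5, 679.9 to 821.0 and 536.2 to 658.3 in overexpressed, knockdown and wildtype arrays), 2 of 8 for endothelium (622.4 to 715.3, 750.9 to 1142 and 789.5 to 832.5), 2 of 6 for Schwann cells and glia (604.8 to 761.0, 860.3 to 980.0 and 882.6 to 986.8) and 1 of 7 for blood and immune cells (651.6 to 776.4, 1150 to 1160 and 1290 to 1318).

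In overexpressed over wildtype 2 of the 14 neuron markers, 5 of the 12 sympathoadrenal, 4 of the 9 fibroblast, 2 of the 8 endothelial, 2 of the 6 Schwann cell and glia and 1 of the 7 blood and immune cell markers had a log2 fold change above 0, and the others were below it. In overexpressed over wildtype Cd74 fell, with 373.2 ± 24.6 in overexpressed, 791.7 ± 104 in knockdown and 928.3 ± 60.9 in wildtype arrays, as did Erbb3, with 257.7 ± 15.6, 359.0 ± 13.1 and 431.3 ± 27.2. Pecam1 fell as well, with 42.2 ± 22.7, 140.7 ± 14.4 and 99.5 ± 11.2 in the same groups. Calls in this comparison made up 14.3% of the blood and immune cell and 16.7% of the Schwann cell and glia markers. They made up 12.5% of the endothelial markers, beside 9.59% of all probe sets, and no fibroblast marker was called. Ptprc, a defining marker of blood cells, averaged 17.6 ± 13.0 in overexpressed, 16.9 ± 12.5 in knockdown and 22.7 ± 8.86 in wildtype arrays (SD, n = 3 each). No array listed a marker at 0. The part of these marker differences in the results for Sema4d, Plxnb2, Nrp1 and Sema6a was not tested.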

How the data were processed

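Total RNA from N1E-115 cells on 9 arrays was used, with 3 arrays per group by their titles. The authors deposited 1 table of linear intensity per probe set; the sources used here do not give the scaling software, and no detection calls were used. Gene symbols came from the platform annotation, in which 20380 probe sets had 1 symbol, 691 several and 1555 none, and 64 control probe sets were left out. Intensities plus 16 were put on the log2 scale, and 22626 probe sets on all 9 arrays were fitted in limma 3.58.1 (R 4.3.3; eBayes with trend), with Benjamini-Hochberg adjustment per comparison; every adjusted p is from limma, two-sided, and a call is an adjusted p under 0.05. The number of arrays limits the precision.

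The members, the lists and the tests were chosen with earlier results of these data known. Probe sets were named with log2 fold changes if called, if brightest of their family in wildtype arrays, or if among the 5 smallest p-values of a comparison. Other probe sets of the same gene were included, some without a log2 fold change. Tcof1 and up to 6 called genes per pathway list and comparison were added, and exceptions are stated. Arrays sharing a letter were not treated as pairs. Alternatives covered the added constant, brightness filter, normalization, variance model, array weights, letter block, probe set types, fold limit, value per gene, each array left out, and, chosen after seeing the data, Unc50. Upstream sequences are from RefSeq.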

Additional observations from a re-analysis of the deposited data

How the results depend on the processing

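Over 32 named guidance probe sets in 3 comparisons there were 10 calls. None of the 10 changed sign under any alternative, 4 kept the call under all, and 6 lost it under at least 1; of the 86 values without a call 34 changed sign and 9 passed under some alternative. The 2 higher calls in overexpressed over wildtype became 1 without the mean-variance trend and 1 with 1 value per gene, and the 4 lower calls became 8 with array quality weights. In knockdown over wildtype the 0 lower calls became 1 with array quality weights. In overexpressed over knockdown the 1 higher call became 3 above the 40th percentile of brightness, 0 without the mean-variance trend and 2 with array quality weights, and the 3 lower calls became 5 with an added constant of 1, with the brightness filter and with array quality weights, and 1 with 1 value per gene. The causes were not tested, except that a value per gene tests fewer features by construction. Without the trend the lost calls were Plxnb2 (adjusted p = 0.071) and Nrp1 1448943_at (adjusted p = 0.0591) in overexpressed over wildtype and Nrp1 1418084_at (adjusted p = 0.071) in overexpressed over knockdown, all by limma. With 1 array left out, higher and lower calls ranged from 1 to 3 and 2 to 7 in overexpressed over wildtype, were 0 and 0 to 1 in knockdown over wildtype, and ranged from 0 to 3 and 2 to 5 in overexpressed over knockdown. In overexpressed over wildtype there was 1 higher call without wildtype array B and without overexpressed array A or B, and there were 2 lower calls without overexpressed array A or wildtype array B and 7 without wildtype array C, which also gave the 1 in knockdown over wildtype. In overexpressed over knockdown there was no higher call without any 1 overexpressed or knockdown array, 3 higher and 5 lower without wildtype array A, and 2 higher without wildtype array C. Signs that changed belonged to values without a call. With 1 array left out these ranged from -0.69 to 0.10 for Sema4d 1434596_at in overexpressed over wildtype and from -0.36 to 0.56 in overexpressed over knockdown, from -0.548 to 0.029 for Epha5 1420557_at in overexpressed over knockdown, and from -0.15 to 0.35 for Epha8 in overexpressed over wildtype. In knockdown over wildtype they ranged from -0.064 to 0.653 for Nrp1 1418084_at, from -0.17 to 0.67 for Nrp1 1448943_at, from -0.214 to 0.029 for Plxnb2, from -0.128 to 0.040 for Sema4d 1420823_at and from -0.107 to 0.043 for Sema4d 1420824_at, which was 0.009 after quantile normalization. Tcof1 1424643_at was -0.001 there with array quality weights and between -0.088 and 0.130 with 1 array left out.

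The labels do not state that the letters A, B and C pair the arrays. Deviations of same-lettered arrays from their group means correlated at -0.01 to 0.10 over 9 pairs. For differently lettered arrays the range was -0.12 to 0.10. An array correlated best with its own letter in 13 of 18 cases, each a choice among the 3 arrays of another group. Whether arrays of 1 letter share a batch or culture was not tested. With the letter as a replicate block the calls were 2 higher and 6 lower in overexpressed over wildtype, 0 and 0 in knockdown over wildtype, and 1 and 4 in overexpressed over knockdown. Efna1 1416895_at (adjusted p = 0.0492) and Unc5c 1419592_at (adjusted p = 0.0484) passed in overexpressed over wildtype and Plxnb2 (adjusted p = 0.0348) in overexpressed over knockdown with that block. In the pathway lists the lower calls in overexpressed over wildtype ranged over the alternatives from 4 to 10 for signalling and from 1 to 4 for other guidance genes. Dim signal limits 64 of the 99 probe sets, whose group means did not pass the median of all values.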
